A study of Mus musculus with 4 samples.

Results

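Somatostatin interneuron nuclei were taken from single-nucleus RNA-seq (snRNA-seq) of the mouse cerebral cortex by their unique molecular identifier (UMI) counts, where a UMI marks 1 captured RNA molecule. A nucleus was kept when it held at least 1 UMI of Gad1 or Gad2, no UMI of Slc17a7, at least 1 UMI of Sst, at least 3 UMIs of Grin3a and Elfn1 together, no UMI of Vip and at most 1 UMI of Rarb. These conditions selected 176 of 35694 nuclei, of which 54 and 50 came from the 2 control libraries and 34 and 38 from the 2 CrT-KO libraries. The rule used measured UMIs, so the levels of its genes only describe the selection. Of these genes, Gad1, Gad2, Sst, Grin3a and Elfn1 were deep enough to enter the test across all genes and its counts, and nothing is read from their values.

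The study compared adult male mice that carry a deletion in the X-linked creatine transporter gene Slc6a8 (CrT-/y, labelled CrT-KO) with wild-type brothers from the same litters (CrT+/y, labelled control), all on a pure C57Bl/6J background and without treatment. Each library held flow-sorted nuclei from the right cortex of 1 animal, so n = 2 per genotype, and the deletion was not limited to a cell type. P-values therefore rest on 2 animals of each genotype, and the gene tests partly share their estimate of the spread across genes. The libraries had 8282 to 9295 nuclei and 51507483 to 65240843 UMIs. The somatostatin nuclei contributed 386489 and 397565 UMIs for control and 314477 and 274526 for CrT-KO.

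Cortical somatostatin interneurons are GABAergic cells born in the medial ganglionic eminence. Many of them are Martinotti cells, whose axons climb to the upper layers and inhibit the distal dendrites of pyramidal neurons, and a smaller class with nitric oxide synthase sends long axons across the cortex. They release the peptide somatostatin, encoded by Sst, beside GABA. Elfn1, a postsynaptic adhesion protein, gives their excitatory inputs the facilitating form they are known for, and Grin3a encodes an NMDA receptor subunit. Creatine enters neurons through the Slc6a8 transporter and buffers ATP as phosphocreatine through the creatine kinases.

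Sst itself was sparse in the nuclei. The 176 nuclei held 242 Sst UMIs, with 141 nuclei (80.1%) at 1 UMI, 28 at 2 UMIs and 7 at 3 or more. The highest nucleus had 23 Sst UMIs and came from CrT-KO replicate 1. Grin3a, with 1774 UMIs and a median of 9 per nucleus, was the deepest of the selecting genes, while Elfn1 had 304 UMIs and was seen in 125 nuclei (71.0%). Among nuclei that met all other conditions, 3, 4, 2 and 2 nuclei of control replicates 1 and 2 and CrT-KO replicates 1 and 2 had exactly 3 UMIs of Grin3a and Elfn1 together and were kept, and 5, 2, 0 and 0 nuclei had 2 UMIs and were left out. An Sst UMI also occurred outside the group, in 1.27% of excitatory nuclei (median 8640 UMIs per nucleus) and in 1.78% of the other GABAergic nuclei (median 5580 UMIs), against a median of 7174 UMIs in the selected nuclei.

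Genes of the medial ganglionic eminence lineage that the rule did not use were frequent. Nxph1, an adhesion ligand of neurexins, was present in 98.3% of the nuclei, Kcnc2, a fast potassium channel subunit, in 97.2%, and Sox6, a transcription factor of the medial ganglionic eminence lineage, in 91.5%. Synpr, which encodes a synaptic vesicle protein, was found in 90.9%, with 631 and 534 UMIs in control and 500 and 455 UMIs in CrT-KO. Satb1 and Maf, transcription factors of the same lineage, appeared in 82.4% and 75.6%, and Lhx6, the lineage's defining factor, in 40.3%. Nuclei selected by Vip had Sox6 in 11.6% and Lhx6 in 2.26%, and excitatory nuclei, which had Slc17a7 and no Gad1 or Gad2 UMI, had Sox6 in 6.03% and Lhx6 in 0.246%. Nuclei selected by Pvalb and the absence of Sst and Vip, which derive from the same eminence, had Sox6 in 91.2% and Lhx6 in 33.2%, so these genes did not separate somatostatin from parvalbumin nuclei. Synpr was found in 16.6% of the parvalbumin nuclei but in 92.9% of the nuclei selected by Vip, where its mean level was 2224 CPM compared with 1556 CPM in somatostatin nuclei (CPM are counts scaled to the same total of all UMIs in each library).

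Markers of other cells ranged from absent to frequent. Pvalb, the calcium-binding protein of basket cells, was not seen in any of the 176 nuclei, which allows nuclei with a Pvalb UMI a share of up to 1.70%. This limits nuclei with a UMI and not nuclei that express the gene, since Pvalb was sparse, at 260 UMIs in the 205 nuclei selected for it. Adarb2, typical of interneurons from the caudal eminence, was found in 23.3% compared with 97.1% of the nuclei selected by Vip. Of the excitatory marker list, 9 of 12 genes had any UMI, and the list summed to 502 and 541 CPM in the control libraries and 598 and 484 CPM in the CrT-KO libraries. The parvalbumin list (5 of 8 genes detected) summed to between 117 and 207 CPM per library, the VIP list (5 of 8) to between 66.8 and 103 CPM, and the LAMP5 list (7 of 8) to between 1006 and 1426 CPM. Striatal markers (13 of 15) summed to between 2089 and 2691 CPM, with Adora2a and Ppp1r1b at 0. The list sums were not set against those of other nuclei. They therefore do not tell RNA of other cells from genes that somatostatin cells express themselves. The selection rule itself fixed Slc17a7 of the excitatory list and Vip of the VIP list at 0. It also held Rarb of the striatal list to at most 1 UMI per nucleus, so these members say nothing about other cells. Microglial markers lay between 45.3 and 56.9 CPM, those of oligodendrocyte precursors between 7.29 and 37.7 CPM, of astrocytes between 89.0 and 138 CPM, and of endothelial cells and pericytes between 7.76 and 25.5 CPM. Microglial (5 of 8), precursor (4 of 6), astrocyte (5 of 8) and vascular (3 of 7) lists had members with UMIs, while C1qa, C1qb and Tmem119, Olig1 and Olig2, Gja1, Gfap and Aqp4, and Rgs5, Slco1a4, Cldn5 and Flt1 were at 0. All 8 oligodendrocyte markers were detected. Oligodendrocyte markers moved with genotype, summing to 160 and 236 CPM in the control libraries and 66.8 and 69.2 CPM in the CrT-KO libraries, and their part in the results below was not tested.

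**Figure D1:**
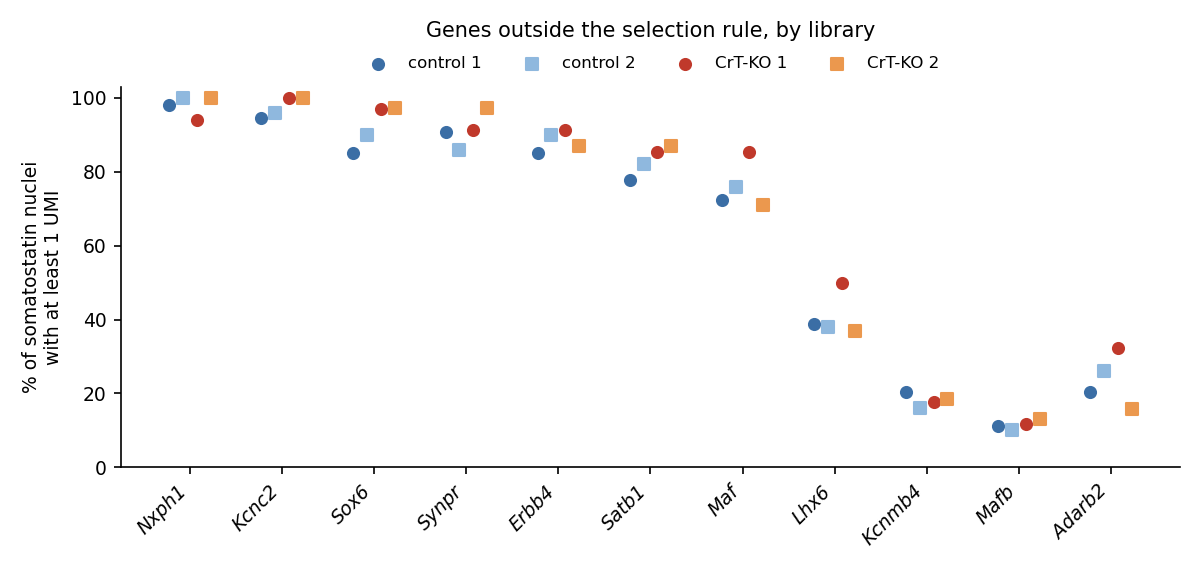
Share of somatostatin nuclei (y axis, % with at least 1 UMI) for 11 genes outside the selection rule (x axis), with 1 point per library, blue for control and red or orange for CrT-KO. Nxph1, Kcnc2, Sox6 and Synpr lie at or above 85% in all 4 libraries, and Adarb2 lies between 15.8% and 32.4%.

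A few nuclei carried signs of a second cell or of another type. Scrublet, a caller of doublets, marked 5 of the 176 nuclei, and 1 nucleus lacked Sox6, Lhx6 and Nxph1. Across the series 96 barcodes occurred in more than 1 library, and 1 somatostatin nucleus had such a barcode. All 176 nuclei were kept, and the fits were repeated without the doublets, and the gene test and shares also without the shared barcodes.

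Ranked by their level relative to other GABAergic nuclei, the leading genes were Lama4, Man1a, L3mbtl4, Ror2, Trpc6, Iqschfp, Tmcc3, Lypd6 and Klf5. Since the nuclei were chosen by expression, this ranking is a description without a test. Lama4, a laminin subunit, averaged 180 ± 26.6 CPM (SD, n = 4 libraries) in somatostatin nuclei and 33.9 ± 5.45 CPM in the other GABAergic nuclei, a ratio of 5.31. Man1a, a mannosidase that trims N-glycans in the Golgi, averaged 712 ± 111 CPM compared with 162 ± 26.3 CPM. Trpc6, a cation channel opened by diacylglycerol, averaged 417 ± 36.4 CPM, and its mean level was 25.3 CPM in parvalbumin nuclei and 204 CPM in VIP nuclei. L3mbtl4 was concentrated in 40 nuclei and ranged from 83.8 to 184 CPM between libraries. None of these 9 genes was called between genotypes at an adjusted p below 0.1, and both control and CrT-KO libraries showed them (for Lama4, 199 and 143 CPM in control and 178 and 200 CPM in CrT-KO).

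To describe variety inside the group, 33 genes that mark known somatostatin subtypes were examined. Cdh7, a cadherin, was the most frequent at 95 nuclei (54.0%), followed by Moxd1 at 69 (39.2%), the calcium-binding protein gene Calb1 at 61 (34.7%) and Pld5 at 50 (28.4%). Cdh7 was more frequent in parvalbumin nuclei, at 65.4%, and was found in 29.2% of other GABAergic nuclei. Moxd1 was found in 22.9% of parvalbumin and 14.7% of other GABAergic nuclei, and Calb1 in 12.2% and 13.6%. Hpse, the heparan sulphate-cleaving heparanase, was rarer at 24 nuclei (13.6%) but stood further above its level elsewhere, at 1.87% of other GABAergic and 0.292% of excitatory nuclei. Cbln4, a synaptic organizer secreted by somatostatin cells, was similar at 12.5% compared with 1.71% and 3.62%. Necab1 was more frequent elsewhere, in 16.5% of somatostatin, 36.8% of other GABAergic and 48.0% of excitatory nuclei. Etv1 was found in 11.4%, 13.8% and 19.0%, and Glra3 was found in 13.6%, 10.5% and 12.7%. Pld5 was found in 31.3% of other GABAergic and 17.9% of excitatory nuclei. Ptgdr and Chrna2, the latter typical of deep-layer Martinotti cells, were at 0 in all 176 nuclei.

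Some subtype genes shared nuclei and others did not. Necab1 was found with Moxd1 in 21 of 29 nuclei (72.4%), while 48 of 147 nuclei without Necab1 (32.7%) had Moxd1. Calb1 accompanied Moxd1 in 36 of 69 nuclei (52.2%) compared with 25 of 107 (23.4%) without it. Hpse nuclei had Cdh7 in 20 of 24 cases (83.3%) and Calb1 in only 2 of 24 (8.33%), whereas nuclei without Hpse had Calb1 in 59 of 152 (38.8%). These pairs were read from the same UMIs per nucleus, and deeper nuclei show more genes, so they are given as a description.

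Genes of the long-range class were found in a minority of nuclei. Nos1, the neuronal nitric oxide synthase, was found in 26 nuclei (14.8%, compared with 8.04% of other GABAergic and 5.30% of excitatory nuclei). The neuropeptide gene Npy was found in 29 (16.5%, compared with 3.83% of other GABAergic and 0.520% of excitatory nuclei). Tacr1, the substance P receptor, was found in 16 (9.09%, compared with 7.79% of other GABAergic and 2.26% of excitatory nuclei). Npy was present in 10 of 26 Nos1 nuclei (38.5%) and in 19 of the other 150 (12.7%). Tacr1 was present in 7 of the 26 (26.9%) and 9 of the 150 (6%). Chodl, which defines this class, was found in 3 nuclei, 2 from control replicate 1 and 1 from CrT-KO replicate 2, and all 3 also had Nos1 and Tacr1.

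Between genotypes the subtype shares did not pass a test. An exact permutation test of 2 against 2 libraries, two-sided, has 6 assignments and cannot go below p = 0.33, so no share could be called. After thinning each nucleus to 4000 UMIs, Cdh7 was present in 42.0% and 35.6% of control and 47.1% and 51.4% of CrT-KO nuclei. The same gene unthinned gave 57.4% and 40.0% in control and 64.7% and 57.9% in CrT-KO libraries. Tacr1 was present in 18.0% and 8.89% of thinned control nuclei and in 5.88% and 2.70% of thinned CrT-KO nuclei, from 9, 4, 2 and 1 nuclei in the 4 libraries, and in 16.7%, 8%, 5.88% and 2.63% without thinning. Both CrT-KO libraries lay below both controls for Tacr1, with p = 0.33 by the exact permutation test and an adjusted p of 1 over the 33 genes. Tacr1 was not alone in this. After thinning, both CrT-KO libraries also lay below both controls for Calb2, Nos1, Etv1, Necab1 and Rxfp1, and above both for Cdh7. The remaining genes of the 33 overlapped or tied. Without ties, a share of 0.33 of the 6 assignments gives such a separation in either direction. Calb2 rested on 1, 2, 0 and 0 nuclei in the 4 libraries and Rxfp1 on 1, 1, 0 and 0. Etv1 overlapped without thinning, at 11.1% and 12.0% in control and 14.7% and 7.89% in CrT-KO. Thinned to 6000 UMIs, Cdh7 overlapped, at 57.1% and 38.2% in control and 51.9% and 55.6% in CrT-KO. Nos1 overlapped between genotypes before thinning, at 18.5% and 12.0% in control and 11.8% and 15.8% in CrT-KO, while thinned values were 12.0% and 8.89% in control and 5.88% and 8.11% in CrT-KO.

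Somatostatin nuclei made up a smaller part of the GABAergic nuclei in both CrT-KO libraries, but the pattern depended on the Sst condition. GABAergic nuclei were those with Gad1 or Gad2, without Slc17a7 and with at most 1 Rarb UMI (4616 in all). Control replicates 1 and 2 had 5.09% (95% Wilson interval 3.93 to 6.59) and 3.99% (3.04 to 5.23), and CrT-KO replicates 1 and 2 had 2.76% (1.98 to 3.83) and 3.54% (2.59 to 4.82). The means were 4.54 ± 0.778% (SD, n = 2) and 3.15 ± 0.551%, a difference of -1.39 percentage points with p = 0.33 by the exact permutation test, the smallest value the design allows. Of all nuclei, the somatostatin nuclei were 0.652% and 0.538% in control and 0.367% and 0.430% in CrT-KO libraries. The intervals cover counting error only, and among pairs of a control and a CrT-KO library only those of control replicate 1 and CrT-KO replicate 1 do not overlap. Thinned to 4000 UMIs before the rule, the difference was -0.719 percentage points.

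Without the Sst condition the same rule took 1237 nuclei, and the genotypes no longer separated. Those nuclei were 29.3% and 24.9% of GABAergic nuclei in control and 27.6% and 25.5% in CrT-KO libraries (difference -0.552 percentage points, p = 1 by the exact permutation test). Within them, an Sst UMI was found in 17.4% and 16.0% of control and 10.0% and 13.9% of CrT-KO nuclei. Thinned to 4000 UMIs, these shares averaged 13.5 ± 0.554% and 9.91 ± 0.742% (SD, n = 2). Fewer nuclei of this type and less Sst RNA per nucleus cannot be told apart in the share chosen with Sst. Inside the selected nuclei Sst stood at 168 and 174 CPM in control and 197 and 168 CPM in CrT-KO libraries, where each nucleus had to hold at least 1 Sst UMI. In CrT-KO replicate 1, 23 of the 62 Sst UMIs were in a single nucleus, so its 197 CPM rests in part on that nucleus. The median was 1 Sst UMI per nucleus in every library.

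**Figure D2:**
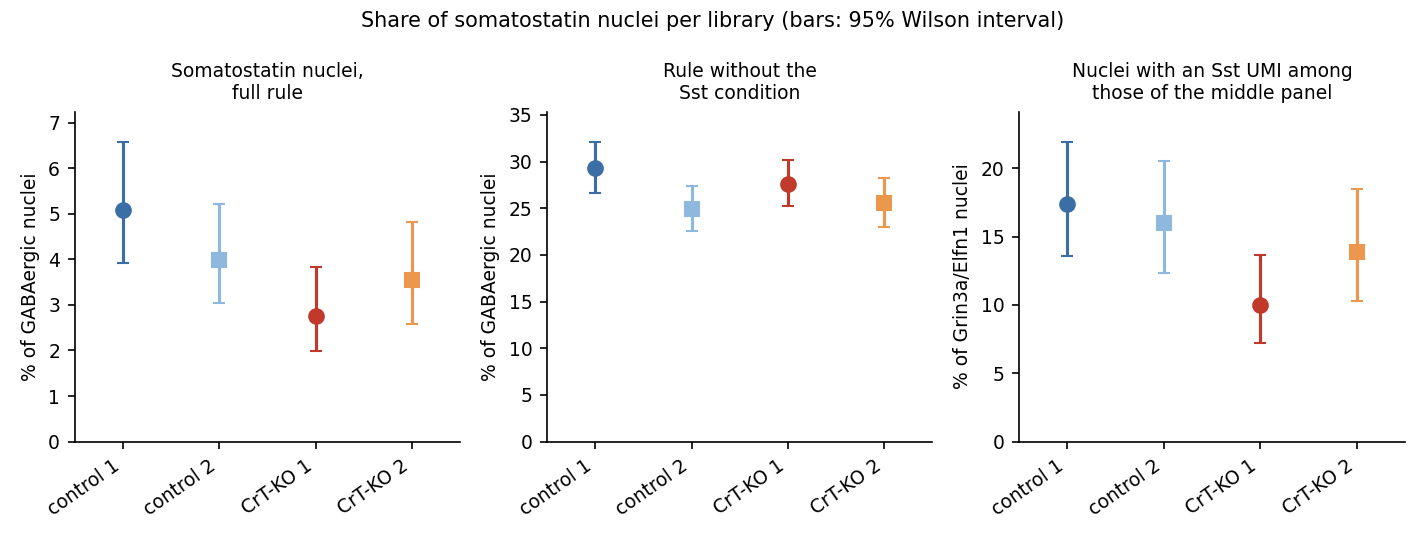
Percent of nuclei (y axes) in each of the 4 libraries (x axis) with 95% Wilson intervals, for the full rule (left, 2.76% to 5.09% of GABAergic nuclei), the rule without the Sst condition (middle, 24.9% to 29.3%) and the share of the latter nuclei with an Sst UMI (right, 10.0% to 17.4%). Both CrT-KO points lie below both control points on the left and right, and the genotypes overlap in the middle.

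To find which genes changed with genotype, UMIs were summed over the somatostatin nuclei of each library and tested with edgeR's quasi-likelihood test. The deleted gene was too low to check the labels inside this group. Slc6a8 had 1 and 3 UMIs in control and 1 and 0 in CrT-KO, where 0 UMIs allow up to 10.9 CPM. In the excitatory nuclei of the same libraries Slc6a8 stood at 7.37 and 5.74 CPM in control and 1.61 and 1.62 CPM in CrT-KO.

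No gene was called at an adjusted p below 0.1 in the somatostatin nuclei, with 0 of 4695 genes tested (0%). At an unadjusted p below 0.05, 266 genes passed (5.67%), 142 higher (3.02%) and 124 lower (2.64%) in CrT-KO, and DESeq2 called 0 genes with 41 at an unadjusted p below 0.05. Simulated counts were also tested for this comparison (4428 to 4449 genes tested per fold size). Of genes with a simulated 2-fold, 4-fold and 8-fold change, 51.3%, 95.1% and 100% were recovered, beside 7, 14 and 15 false calls. The simulation gave all genes the same spread between libraries (dispersion 0.0124) and did not model UMIs concentrated in single nuclei. Its shares are therefore not the recovery for genes of the data that vary more. The count of 0 depended on the libraries, since 13 genes were called without control replicate 1, 22 without control replicate 2, 38 without CrT-KO replicate 1 and 0 without CrT-KO replicate 2. A fit with 1 library in a genotype assumes that this library varies like the other genotype's. Both CrT-KO libraries lay above both controls for 17.4% of genes and below for 17.5%. Against this background, the genes below are the 10 with the lowest p, given by their values.

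Tacr1, the substance P receptor gene of the Nos1 class described above, had 35 and 21 UMIs in control and 4 and 3 in CrT-KO (chromosome 6, 82402334 to 82560104, GRCm38). The groups did not overlap, and the log2 ratio of CrT-KO to control was -2.53 ± 0.49 (SE), which did not pass (edgeR adjusted p = 0.127). These UMIs came from 16 nuclei, the richest of which held 11. In the nuclei that met every condition except an Sst UMI, Tacr1 was at 35.2 and 77.6 CPM in control and 95 and 77.0 CPM in CrT-KO, with a log2 ratio of 0.63, and the genotypes overlapped.

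Caln1, which encodes a calcium-binding protein related to calmodulin (chromosome 5, 130369455 to 130847412, overlapped on the other strand by A330070K13Rik), had 37 and 38 UMIs in control and 10 and 2 in CrT-KO. The log2 ratio was -2.20 ± 0.42 (SE), again without passing (edgeR adjusted p = 0.127). Its UMIs sat in 27 of 176 nuclei, and 24 of the 87 were in a single nucleus of control replicate 2. In the nuclei without an Sst UMI its log2 ratio was 0.19. The gene was found in more of the excitatory nuclei (76.6%, mean 435 CPM) and other GABAergic nuclei (49.8%, mean 360 CPM) than of the somatostatin nuclei (15.3%).

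Mageb18, a member of the melanoma antigen family on the X chromosome (92118879 to 92599572, overlapped on the other strand by Gm5941), was higher in both CrT-KO libraries. It had 18 and 13 UMIs in control and 32 and 36 in CrT-KO, from 41 nuclei in all, and a log2 ratio of 1.56 ± 0.31 (SE), at the same edgeR adjusted p of 0.127. In the nuclei without an Sst UMI it had 28.1 and 27.3 CPM in control and 39.4 and 53.7 CPM in CrT-KO (log2 ratio 0.75, adjusted p = 0.994). Excitatory nuclei had 2.07 ± 0.147 CPM (SD, n = 4).

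Found in more nuclei than these 3 genes was a second Arhgap26 record of the annotation (ENSMUSG00000118193), which overlaps the main Arhgap26 gene, a GTPase-activating protein, on the same strand and Fgf1, a fibroblast growth factor, on the other strand. It had 296 and 256 UMIs in control and 110 and 117 in CrT-KO, in 149 of the 176 nuclei, and no nucleus held more than 2.82% of them. Its log2 ratio was -0.84 ± 0.17 (SE), with edgeR adjusted p = 0.127. The main Arhgap26 record (ENSMUSG00000036452) had 155 and 137 against 95 and 94 UMIs, a log2 ratio of -0.19 ± 0.18 with adjusted p = 0.960. Fgf1 had 52 and 67 against 34 and 37 UMIs, a log2 ratio of -0.31 ± 0.25 with adjusted p = 0.956. Since the 3 records share genomic positions, the UMIs assigned to each are uncertain.

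In the nuclei without an Sst UMI, which are separate nuclei of the same animals, the second Arhgap26 record was the only gene called among 9161 (0.0109%). It had 577 and 536 CPM in control and 314 and 332 CPM in CrT-KO, and its log2 ratio of -0.76 ± 0.11 (SE) passed with edgeR adjusted p = 0.045. Somatostatin nuclei stood at 766 and 644 CPM in control and 350 and 426 CPM in CrT-KO. Both CrT-KO libraries lay below both controls in the VIP and parvalbumin nuclei as well, with control and CrT-KO means of 456 and 266 CPM in VIP nuclei and 864 and 728 CPM in parvalbumin nuclei. Excitatory nuclei had 190 ± 3.25 CPM in control and 77.7 ± 14.3 CPM in CrT-KO (SD, n = 2). The record was not among the genes whose genotype difference passed a test between populations, given below.

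**Figure D3:**
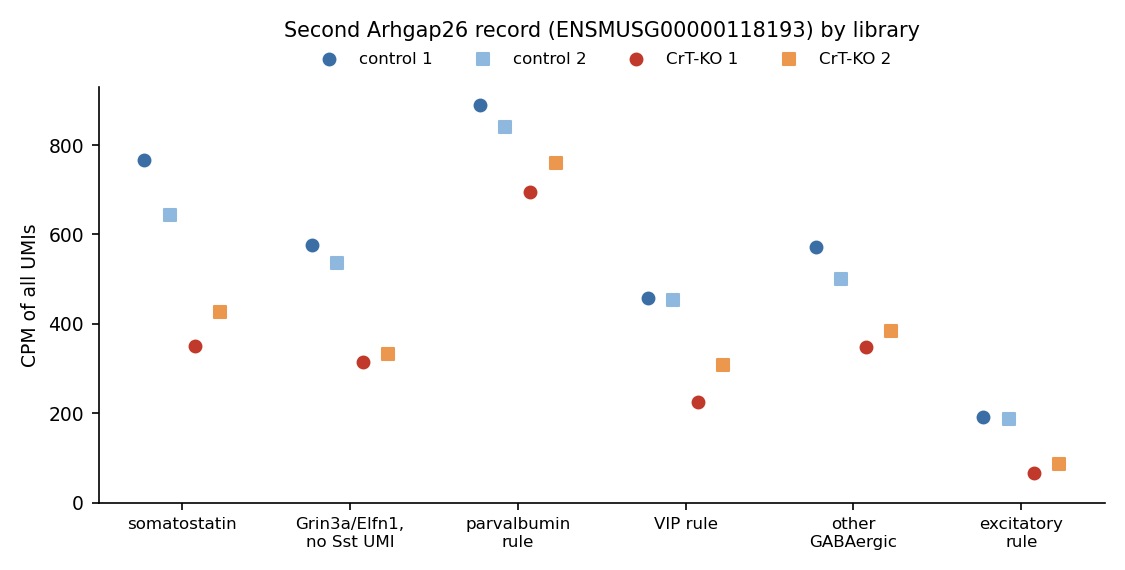
Level (y axis, CPM of all UMIs) of the second Arhgap26 record in 6 sets of nuclei (x axis), with 1 point per library and the set of other GABAergic nuclei containing those without an Sst UMI and those of the parvalbumin and VIP rules. Both CrT-KO points lie below both control points in every set.

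The other 6 genes of the lowest p had adjusted p values of 0.424 to 0.560 and log2 ratios of -1.91 to 0.82. Efna5, an ephrin that guides axons, had 207 and 211 UMIs in control and 238 and 243 in CrT-KO, which gave 566 ± 2.36 CPM of tested genes in control and 884 ± 109 CPM in CrT-KO (SD, n = 2). Vstm2a, a secreted immunoglobulin-domain protein, had 61 and 75 UMIs in control and 89 and 89 in CrT-KO (log2 ratio 0.82 ± 0.20). Lower values in CrT-KO were found for Stk32a, a serine/threonine kinase (35 and 44 against 15 and 7 UMIs), Mid1, an X-linked ubiquitin ligase (23 and 41 against 7 and 8), Timp3, an inhibitor of metalloproteinases (31 and 27 against 5 and 10), and Hs3st4, a heparan sulphate sulphotransferase (31 and 122 against 21 and 9). For Hs3st4, 56 of 183 UMIs came from a single nucleus of control replicate 2, and its log2 ratio of -1.91 became -0.63 without that library and -0.44 under a looser rule (at least 1 UMI of Grin3a and Elfn1 together). None of the 6 passed the threshold. In each the genotypes did not overlap, which is likely for genes chosen by their low p and adds nothing to the test.

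**Figure D4:**
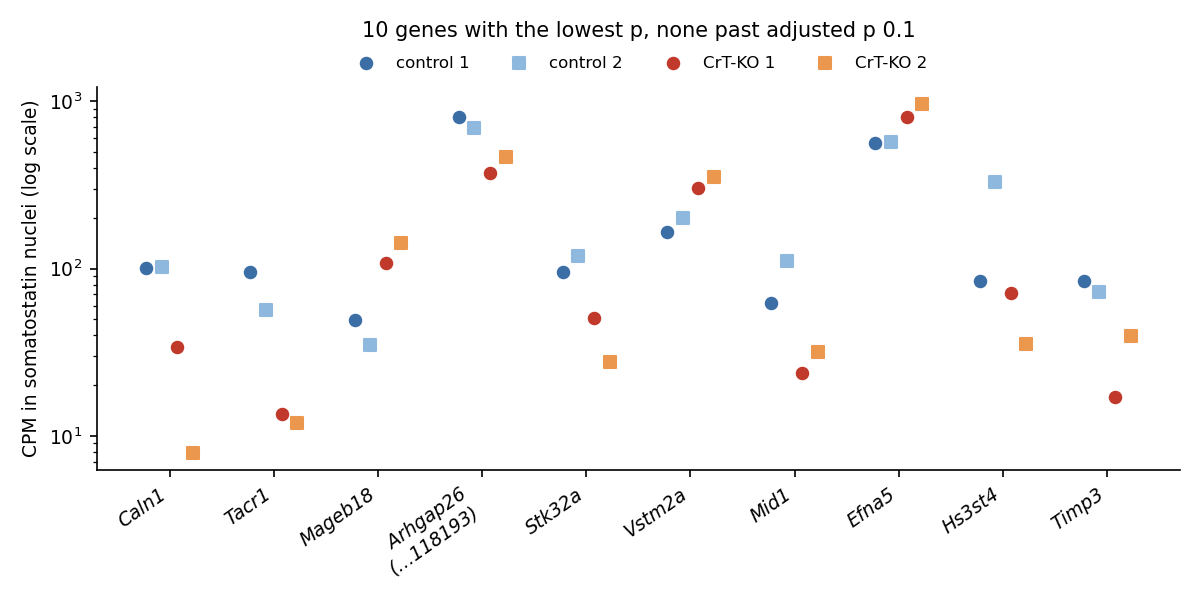
Level in somatostatin nuclei (y axis, CPM of tested genes after TMM scaling, log scale) of the 10 genes with the lowest p (x axis), with 1 point per library. For all 10 genes both CrT-KO points lie on the same side of both control points, which the choice by lowest p makes likely. Among all 4695 tested genes, 17.4% lay above and 17.5% below in this way. No gene had an adjusted p below 0.1.

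Gene groups were read as counts beside all 4690 tested genes outside the rule, of which 816 lay higher and 818 lower without overlap and whose median log2 ratio was -0.0044. No member of any list was called. In the medial ganglionic eminence list, 9 genes were tested, with 1 higher and 1 lower without overlap and a median log2 ratio of 0.016. Sox6 had 472 and 471 against 349 and 324 UMIs, a log2 ratio of -0.05 ± 0.14, and Nxph1 had 1394 and 1587 against 1230 and 1039 UMIs, a log2 ratio of 0.04 ± 0.13. Of the 33 subtype genes, 10 were deep enough to test, with 1 higher and 3 lower and a median of -0.079. Somatostatin receptors were almost silent, with Sstr2 at 2, 1, 5 and 2 UMIs in the 4 libraries, Sstr1 at 2 UMIs in a single nucleus and Sstr4 and Sstr5 at 0. Cort, the related peptide cortistatin, had 1, 0, 4 and 2 UMIs.

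Of the list for GABA synthesis, packaging and uptake, 5 genes outside the rule were tested (2 higher, 1 lower, median 0.168). Abat, which breaks GABA down, had 52 and 58 against 46 and 39 UMIs and a log2 ratio of 0.06 ± 0.23. Among the rule's own genes, given as a description, Gad1 had 86 and 69 against 74 and 49 UMIs, and Gad2 132 and 143 against 86 and 80.

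Creatine genes were near the detection limit. Ckb, the brain creatine kinase, had 8, 13, 6 and 5 UMIs, and mitochondrial Ckmt1 had 5, 5, 8 and 3. Gatm, which begins creatine synthesis, had 0, 1, 1 and 1 UMIs, and Gamt, which completes it, and Ckm had none. Only Slc6a6, the taurine transporter of the same family, was deep enough to test, with 19 and 29 against 22 and 18 UMIs and a log2 ratio of 0.17 ± 0.32 (adjusted p = 0.984).

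Of 26 potassium channel genes tested, 5 were higher and 4 lower without overlap, with a median of 0.0084. Kcnc2 had 806 and 1053 against 875 and 836 UMIs, a log2 ratio of 0.32 ± 0.14 with adjusted p = 0.854. For sodium, calcium and HCN channels 3 of 20 were higher and 1 lower (median 0.042). Of 21 glutamate receptor genes 3 were higher and 6 lower (median -0.049). Among 12 GABA receptor genes 4 were higher and 2 lower, with a median of 0.263, the largest positive median among the channel and receptor lists. Gabrg3, a benzodiazepine-type receptor subunit, had 232, 450, 323 and 336 UMIs, with control replicate 1 below the other 3 libraries.

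Synaptic organizers had 29 tested members, with 7 higher, 4 lower and a median of 0.032. Tenm2, a teneurin adhesion molecule, had 1470 and 1813 against 1581 and 1423 UMIs, a log2 ratio of 0.31 ± 0.13 (adjusted p = 0.830), and Nrxn3, the deepest member, a log2 ratio of 0.14 ± 0.11. Cyclic nucleotide phosphodiesterases had 1 of 11 higher and 1 lower (median 0.171). Pde4b had 132, 177, 102 and 37 UMIs, with CrT-KO replicate 2 far below CrT-KO replicate 1.

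Stress and energy genes were shallow. Of the nuclear oxidative phosphorylation genes, 12 of 40 were tested, with 3 higher, 6 lower and a median of -0.084, and Ndufs4, a complex I subunit, had 36, 51, 33 and 37 UMIs. Endoplasmic reticulum chaperones had 4 tested members (0 higher, 1 lower, median -0.041), and cytosolic and mitochondrial chaperones 4 (2 higher, 1 lower, median 0.400). Hsph1, a heat shock protein of the Hsp110 family, had 14 and 18 against 2 and 4 UMIs, a log2 ratio of -1.94 ± 0.59 with adjusted p = 0.587. Of the immediate-early genes only 3 were tested and all overlapped between genotypes (median -0.229). Mbp, the myelin gene among the oligodendrocyte markers, had 27 and 35 against 13 and 6 UMIs, a log2 ratio of -1.27 ± 0.37 with adjusted p = 0.560.

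Whether genotype acted differently in somatostatin nuclei than in other nuclei was asked with an interaction term, with the libraries as blocks. The other GABAergic nuclei include the nuclei that met every condition of the rule except an Sst UMI. As 80.1% of the selected nuclei held only 1 Sst UMI, somatostatin cells in which Sst was missed may be among them, which was not tested. Against the other GABAergic nuclei, 5 of 10985 genes (0.0455%) passed an adjusted p of 0.1. Tacr1, Caln1, Hs3st4 and Foxp2 were lower in CrT-KO somatostatin nuclei relative to the other nuclei, and Erbb4, the neuregulin receptor of interneurons, was higher. For Tacr1 the difference of log2 ratios was -2.74 ± 0.52 (SE, adjusted p = 0.00682), and the other GABAergic nuclei had 198 and 297 against 327 and 234 UMIs. The difference for Caln1 was -2.28 ± 0.40 (adjusted p = 0.00259), and the other GABAergic nuclei had 2114 and 2490 against 2788 and 2099 UMIs. For Erbb4 the difference was 0.83 ± 0.17 (adjusted p = 0.0359), from 372 and 771 against 754 and 608 UMIs in the somatostatin nuclei, and 223 of its 2505 UMIs were in a single CrT-KO replicate 1 nucleus.

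Single libraries and nuclei carried much of these differences. Foxp2, a transcription factor of deep-layer projection neurons, had 10 and 33 against 1 and 1 UMIs, a difference of -4.03 ± 0.70 (SE, adjusted p = 0.00259), and 19 of its 45 UMIs were in a single nucleus. Without control replicate 2, Foxp2 and Hs3st4 no longer passed (adjusted p = 0.306 and 1), without control replicate 1 Tacr1 and Erbb4 did not (adjusted p = 0.399 and 1), and without CrT-KO replicate 2 Caln1 did not (adjusted p = 0.107). Hs3st4 also did not pass without doublets (adjusted p = 0.279). Erbb4 and Hs3st4 each passed under 5 of 8 alternatives. Sums of 34 to 54 nuclei were set against sums of 1006 to 1202 nuclei in this fit, with a shared estimate of the spread.

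Against excitatory nuclei, 17 of 12888 genes (0.132%) passed. Those with a lower relative level in CrT-KO somatostatin nuclei were Hs3st4, Caln1, Foxp2, Adarb2, Cntnap5c, Ndst4, Arhgef28, Ctdspl, Timp3, Meis2, Htr1f and Prickle2, and those with a higher level were Efna5, Csgalnact1, Cdh9, Erbb4 and Vstm2a. Csgalnact1, which starts chondroitin sulphate chains, had 13 and 23 against 27 and 33 UMIs, with a difference of 1.42 ± 0.32 (adjusted p = 0.0138). Efna5 differed by 0.80 ± 0.17 (adjusted p = 0.00419), with 16222 and 16908 against 15879 and 13978 UMIs in the excitatory nuclei. Cdh9, a cadherin, differed by 0.78 ± 0.18 (adjusted p = 0.0144), from 196, 123, 158 and 167 UMIs in the 4 libraries. Cntnap5c is the exception in which the excitatory nuclei differed by genotype themselves, with 2875 and 3075 against 5008 and 3720 UMIs (log2 ratio 0.52, adjusted p = 0.011) and a log2 ratio of -0.23 in somatostatin nuclei. Without control replicate 1 only 5 genes passed this test. Caln1 passed with each library left out in turn, with adjusted p of at most 0.0309.

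**Figure D5:**
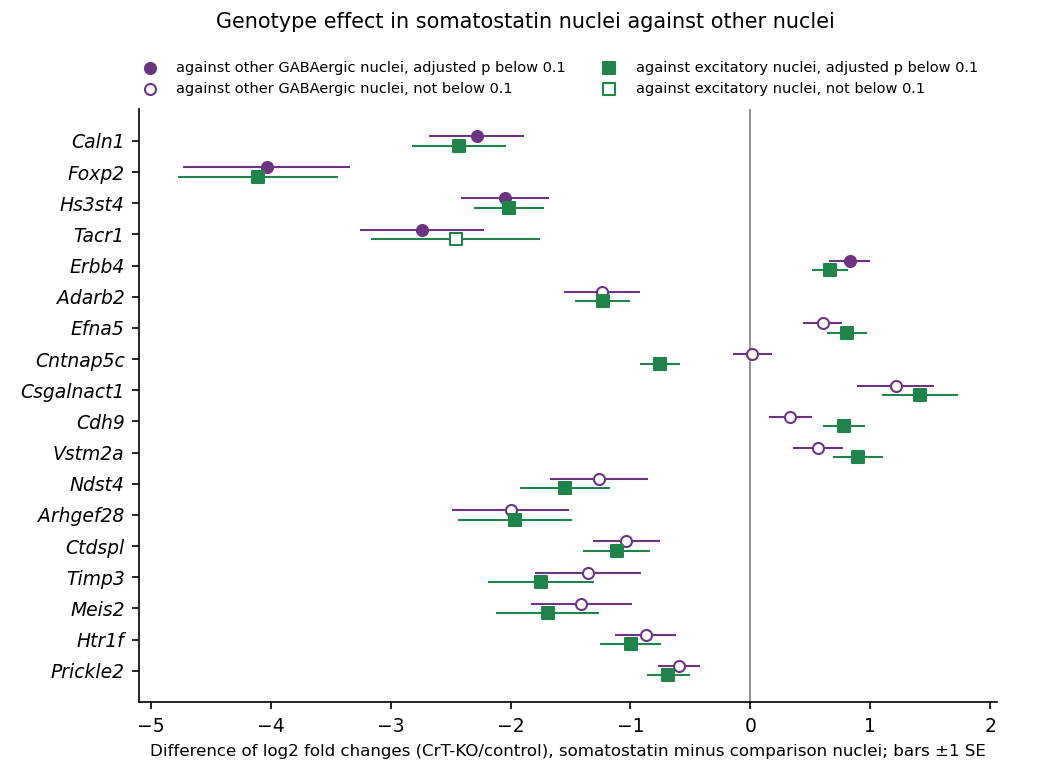
Difference of log2 ratios between somatostatin and comparison nuclei (x axis, bars ± 1 SE) for the 18 genes (y axis) called in either interaction test, against other GABAergic nuclei (purple circles) and excitatory nuclei (green squares), filled where the adjusted p was below 0.1. Foxp2 lies lowest at -4.03 and -4.10, and Csgalnact1 highest at 1.42 against excitatory nuclei.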

How the data were processed

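Raw UMI counts per nucleus and gene, as deposited by the authors, were read for 4 libraries (2 control, 2 CrT-KO). The submitters' processing notes name FastQC, Cell Ranger 3.1.0 and Seurat 3.1.4 and the build GRCm38 (mm10), and the study's methods describe a pre-mRNA reference, so intronic reads count. The deposited counts were not normalized and came as filtered matrices. Gene positions are from the GENCODE annotation of GRCm38, where 99.5% of 21933 genes were found by identifier. Members and gene lists were chosen with earlier results of these data known.

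UMIs were summed per library and tested with edgeR 4.0.16 (R 4.3.3, filterByExpr, TMM, quasi-likelihood test, Benjamini-Hochberg adjustment over all tested genes, threshold 0.1). Interaction fits held both populations with the library as a block. DESeq2 1.42.0 was an alternative. The study itself tested single nuclei with a Wilcoxon test. CPM are scaled to all UMIs of the summed nuclei unless tested genes are named. Shares have 95% Wilson intervals, which cover counting error only, and exact two-sided permutation tests. A count of 0 allows up to 3 counts. For subtype shares nuclei were thinned to 4000 UMIs, which kept 166 of 176. Doublets were called with Scrublet (scanpy 1.11.5) and removed only as an alternative. The model scripts were tested on simulated data. Further alternatives changed the rule, the filter, the scaling and the libraries.

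Genes were named by rule: the selecting genes and Synpr, the creatine list, the 10 lowest p (as fewer than 10 genes were called), up to 4 members per list with the most control UMIs, the 10 largest ratios to other GABAergic nuclei with at least 50 CPM in each library, and up to 5 genes each way per interaction test. The identity and subtype genes beyond these, and the remaining genes called against excitatory nuclei, were chosen after their values were seen. Some genes that the rule names are not reported here.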

Additional observations from a re-analysis of the deposited data

Results flagged for a closer look

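The genes called by the interaction tests are those for which the genotype difference in somatostatin nuclei and in comparison nuclei of the same libraries differed by edgeR's test of that difference (adjusted p below 0.1). Values are differences of log2 ratios of CrT-KO to control, somatostatin minus comparison nuclei.

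Against other GABAergic nuclei, which include those that met every condition except an Sst UMI, 5 genes were called. The difference was -2.28 for Caln1, -4.03 for Foxp2, -2.05 for Hs3st4, -2.74 for Tacr1 and 0.83 for Erbb4. In the other GABAergic nuclei alone none of these 5 genes passed, with adjusted p = 0.997 for each. In the somatostatin nuclei alone none of them was called either. There the edgeR adjusted p was 0.127 for Caln1 and Tacr1, 0.533 for Hs3st4 and 0.590 for Erbb4.

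Against excitatory nuclei the lower values were -2.01 for Hs3st4, -2.43 for Caln1, -4.10 for Foxp2, -1.23 for Adarb2, -0.76 for Cntnap5c, -1.54 for Ndst4, -1.96 for Arhgef28 and -1.11 for Ctdspl. Timp3 differed by -1.74, Meis2 by -1.69, Htr1f by -0.997 and Prickle2 by -0.68. The higher values were 0.80 for Efna5, 1.42 for Csgalnact1, 0.78 for Cdh9, 0.66 for Erbb4 and 0.90 for Vstm2a. Adarb2 had 61, 170, 62 and 7 UMIs in the somatostatin nuclei of control replicates 1 and 2 and CrT-KO replicates 1 and 2, so the genotypes overlapped. Htr1f and Prickle2 passed under 1 of 8 alternatives each, Meis2 under 3, and Cdh9 and Ctdspl under 4.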

How the results depend on the processing

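The count of genes changed in somatostatin nuclei was 0 with DESeq2, library-size scaling, no filter on low counts, the threshold 0.05, doublets or shared barcodes removed, the stricter rule, Rarb at 0 and Pvalb at 0. It was 1 with the looser rule (the second Arhgap26 record), 3 without the Sst condition (added after seeing the data: Hsp90ab1, the Arhgap26 record and Fgf1) and 28 with a replicate block, and leaving out each library gave 0 to 38. The replicate numbers were not taken to pair the animals, as the sample labels state no pairing, so the block fit is given only as a count. Deviations of same-numbered libraries from their genotype means correlated at 0.0287. With 2 libraries per genotype this is a single value, which cannot decide whether the animals were paired. Without the Sst condition the log2 ratio changed sign for Caln1 (0.15), Tacr1 (0.40), Hs3st4 (0.012), Erbb4 (-0.056) and Pde4b (0.036), and with the stricter rule for Pde4b (0.33) and Cdh9 (-0.093). The share among GABAergic nuclei differed by -0.426 percentage points with the stricter rule, by -0.552 without the Sst condition, by -0.719 thinned and by -1.94 to -0.842 with a library left out. The share of all nuclei differed by -0.0579 with the stricter rule, by -0.107 thinned and by -0.254 to -0.140 with a library left out. The interaction test called 8 to 22 genes against other GABAergic nuclei and 5 to 24 against excitatory nuclei with a library left out, and 4 and 36 with the replicate block in place of the library block, where Erbb4 no longer passed against other GABAergic nuclei (adjusted p = 0.449). Subtype shares gave 0 calls throughout, where the design allows none. The causes of these changes were not tested. Depth limits Slc6a8 and the somatostatin receptors, at 0 to 5 UMIs per library, and Sst, mostly at 1 UMI per nucleus.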

Other observations

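Of the genes called in a wider grouping of somatostatin-like nuclei in earlier work on these data, none was called in the 176 nuclei. Meis2, a homeobox factor, had 19 and 30 UMIs in control and 4 and 8 in CrT-KO, with a log2 ratio of -1.58 ± 0.46 (SE, edgeR adjusted p = 0.560). Eya4, a transcriptional coactivator, had 47, 70, 54 and 71 UMIs, with a log2 ratio of 0.54 ± 0.25. As these genes were chosen on the same libraries, their values are not independent evidence.

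The nucleus with 23 Sst UMIs had 9482 UMIs in all, and the next highest nucleus had 6 Sst UMIs.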
